A study of Mus musculus with 24 samples.

Results

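The response to all-trans retinoic acid (ATRA) of P19 cells without the retinoic acid receptor RARβ was set beside that of wild-type (WT) P19 cells at day 10. The members were all genes listed with ATRA at day 10 in either line, 795 of the 1753 genes listed in at least 1 of the 23 deposited comparisons. A gene listed in both lines in the same direction was called kept, a gene listed in WT cells only was called lost, and a gene listed in Rarb-/- cells only was called gained.

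P19 is a mouse embryonal carcinoma line that grows as pluripotent cells and can form neurons and glia. Both lines were grown as a monolayer, exposed to 1 µM ATRA for 4 d and then kept for 6 d in Neurobasal medium with N2 and with B27 lacking vitamin A. The Rarb-/- line was made with CRISPR/Cas9 and a puromycin resistance cassette, and whether it is 1 clone is not given in the sources used here. Both libraries were compared by the authors with the same library, WT cells after 2 d of ethanol (EtOH), the vehicle. Further libraries of WT, Rara-/-, Rarb-/- and Rarg-/- cells are set beside them. Their ligands were ATRA or BMS753, an agonist of RARα, at 1 µM, or BMS961, an agonist of RARγ, at 0.1 µM. BMS961 was also given with BMS641, an agonist of RARβ, at 0.1 µM each, which is called the combination. Each condition has 1 library of poly-T captured RNA, so no difference between the lines has a replicate check and none was tested. A vehicle library of the Rarb-/- line was not used here, so a difference that this line had before treatment and a different response to ATRA cannot be told apart. In such bulk samples fewer cells of a type and less RNA per cell cannot be told apart either.

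The values are the log2 fold changes of the authors, and every gene in their tables has an unadjusted p-value below 0.01. With 1 library a side, only large changes passed this limit, and the smallest absolute log2 fold change was 4.73 in the WT table and 4.61 in the Rarb-/- table. A gene that is not listed has an unknown value, which may lie just below the limit. For this reason each gene was also described by its distance above the limit, which is the absolute log2 fold change minus 2.58 times the standard error (SE) implied by the log2 fold change and p-value. No read counts entered the work, and sequencing depth is unknown.

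Retinoic acid acts through RARα, RARβ and RARγ, nuclear receptors that bind DNA together with RXR, often at a pair of direct repeats separated by 5 bases (a DR5 element). Rarb is itself a classical target of ATRA and its promoter holds such an element. In the embryo, retinoic acid patterns the hindbrain and spinal cord through Hox genes, promotes neuron formation, and also acts on mesoderm and on neural crest. Rara, Rarb and Rarg were listed in 0 of the 23 tables, so the loss of Rarb could not be checked in the deposited values.

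The promoter of Rarb is shown because it holds the element through which the deleted gene answers ATRA. The promoters of Gad1 and Gbx2 are those of the lost rising genes with the smallest p-values that have exactly 1 promoter in the table used, and that of Bgn is the corresponding gained one. Each sequence is the 250 bases before the annotated start in RefSeq (GRCm38.p6), read 5′ to 3′ on the strand of the gene. Capitals mark a DR5 in Rarb, in which each repeat was AGGTCA or AGTTCA or GGGTCA or GGTTCA, on either strand. In the other genes capitals mark the E-box letters CACCTG or CAGCTG, searched on both strands and counted separately, of the kind bound by basic helix-loop-helix factors. In Rarb (chr14:16575477-16575726, minus strand) the DR5 begins at position -53 from the start, in Gad1 (chr2:70561879-70562128, plus strand) CACCTG begins at -104, in Gbx2 (chr1:89931177-89931426, minus strand) CAGCTG begins at -51, and in Bgn (chrX:73483351-73483600, plus strand) CAGCTG begins at -102.
Rarb: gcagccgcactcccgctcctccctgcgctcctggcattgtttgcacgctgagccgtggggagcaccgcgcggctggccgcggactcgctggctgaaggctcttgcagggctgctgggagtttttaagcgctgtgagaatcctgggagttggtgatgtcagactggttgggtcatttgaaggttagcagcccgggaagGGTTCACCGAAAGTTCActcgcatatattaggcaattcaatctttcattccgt
Gad1: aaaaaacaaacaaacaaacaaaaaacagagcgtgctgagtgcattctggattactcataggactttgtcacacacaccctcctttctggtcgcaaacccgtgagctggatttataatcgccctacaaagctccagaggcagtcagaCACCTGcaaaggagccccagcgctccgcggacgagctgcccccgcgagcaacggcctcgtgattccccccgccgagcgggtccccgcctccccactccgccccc
Gbx2: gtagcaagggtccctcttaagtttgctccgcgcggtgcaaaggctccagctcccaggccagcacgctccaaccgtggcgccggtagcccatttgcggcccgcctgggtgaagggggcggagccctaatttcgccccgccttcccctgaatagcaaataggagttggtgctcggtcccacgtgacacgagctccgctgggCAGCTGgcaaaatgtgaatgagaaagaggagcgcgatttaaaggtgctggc
Bgn: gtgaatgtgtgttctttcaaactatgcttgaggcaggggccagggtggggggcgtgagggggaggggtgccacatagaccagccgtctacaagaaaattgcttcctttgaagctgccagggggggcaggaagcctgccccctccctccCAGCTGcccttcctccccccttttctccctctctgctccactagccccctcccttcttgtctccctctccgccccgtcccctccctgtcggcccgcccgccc
Over the promoters of 27025 genes in this table, counting 250 bases before and 50 after the start, 0.115% held a DR5, 22.6% held CACCTG and 18.3% held CAGCTG. A match is a description of the letters in the window and says nothing about binding. Promoters were found for 577 of the 795 members, which is 72.6%, and no share was compared between kept, lost and gained genes.

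With ATRA, 395 genes rose in WT cells and 359 in Rarb-/- cells, which is 22.5% and 20.5% of the 1753 genes. Of the rising genes 179 were kept, 216 were lost and 180 were gained, so that 54.7% of the WT list was lost and 50.1% of the Rarb-/- list was gained. These shares depended on the p limit, since 105 rising genes were kept, 41 lost and 25 gained with p below 0.001 in 1 table and a listing in the other, and 29, 65 and 77 with p below 0.001 in both. In the falling direction 151 genes were listed in WT cells and 180 in Rarb-/- cells, or 8.61% and 10.3%. Here 111 were kept, 40 were lost and 69 were gained, so that 26.5% of the WT list was lost. The falling genes were therefore shared to a larger part than the rising ones, at 73.5% against 45.3% of the WT list, a difference that has no test. In both directions together 0 genes were listed with opposite signs.

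Many of the lost and gained genes lay close to the limit. The median distance above it was 0.73 log2 units for lost rising genes and 0.58 for gained rising genes, against 1.00 in WT cells and 1.42 in Rarb-/- cells for kept ones. A distance over 1 was reached by 86 of the 216 lost genes (39.8%) and 52 of the 180 gained genes (28.9%). For falling genes it was reached by 7 of the 40 lost and 15 of the 69 gained genes.

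**Figure D1:**
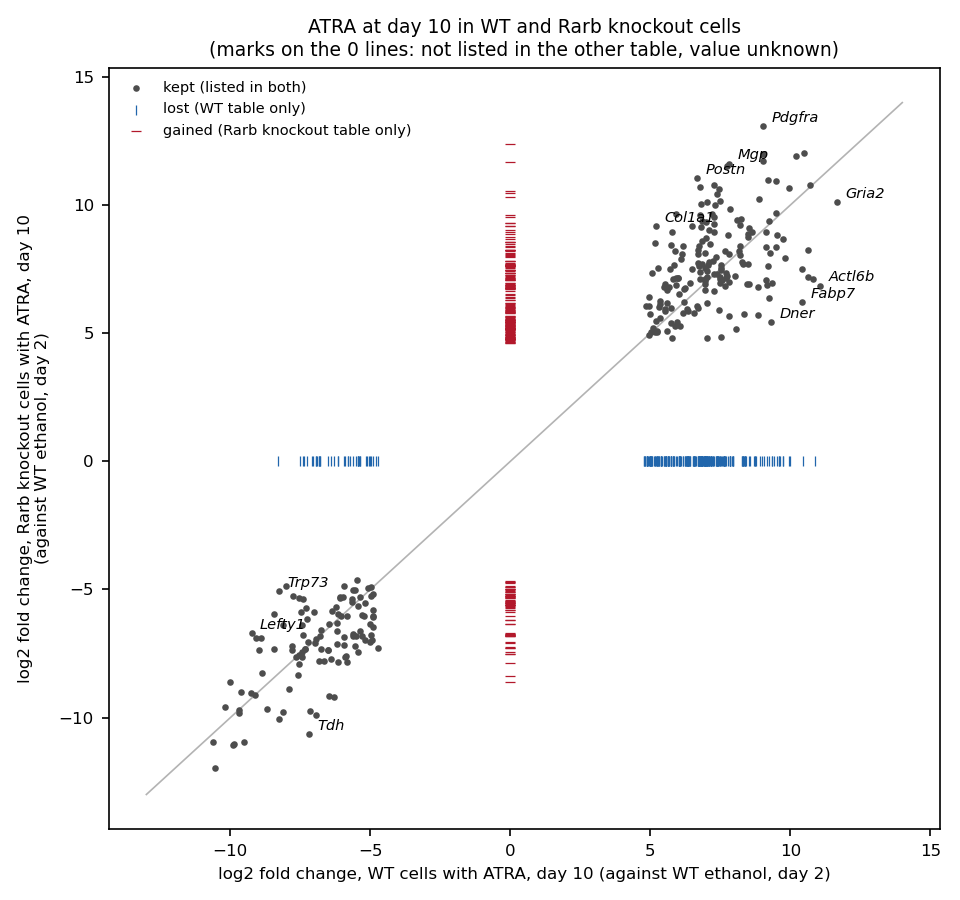
Log2 fold change against WT ethanol at day 2 in WT cells (horizontal axis) and in Rarb-/- cells (vertical axis) with ATRA at day 10; points are kept genes, ticks on the 0 lines are genes listed in 1 table, whose other value is unknown, and the diagonal marks equal values. Kept genes fall along the diagonal in 2 clouds, with Pdgfra (9.04 and 13.09) above it and Fabp7 (10.42 and 6.20) below it.

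**Figure D2:**
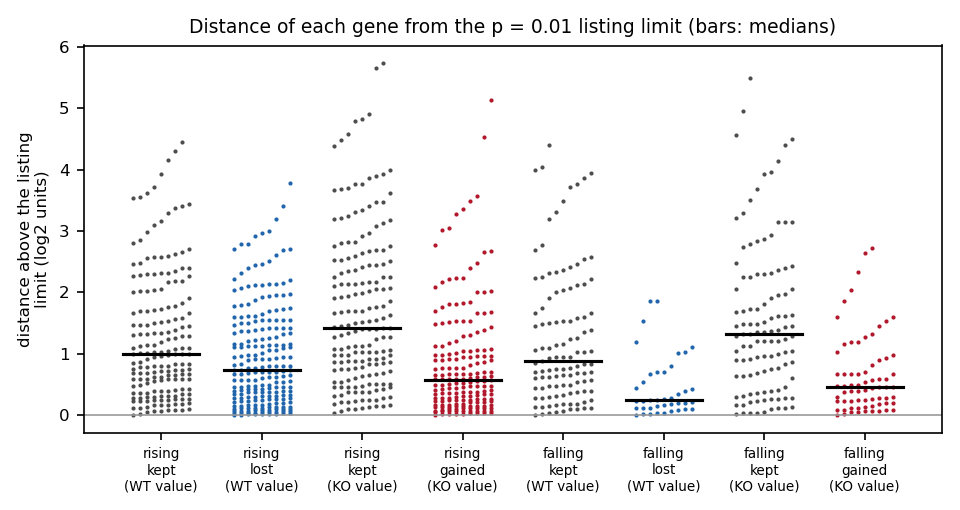
Distance of each gene above the listing limit in log2 units (vertical axis) for kept, lost and gained genes in each direction, with bars at the medians. Lost and gained genes crowd near 0, with medians of 0.73 and 0.58 for rising genes, but reach 3.79 (Lhx5) and 5.14 (Rtl1).

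The lost rising genes with the smallest p-values were mostly genes of neurons and of the dorsal neural tube. Lhx5, a LIM homeobox transcription factor of the developing forebrain and spinal cord (chr5:120881895-120891466 in mm9), had a log2 fold change of 10.89 (SE 2.76) in WT cells. Gad1, which makes the inhibitory transmitter GABA (chr2:70391129-70440071), was at 9.59 (SE 2.48). Gbx2, a homeobox factor of the anterior hindbrain (chr1:91824537-91829865), was at 10.46 (SE 2.73). None of these genes was listed in Rarb-/- cells with ATRA. The same holds for Dcx, a microtubule protein of young neurons, at 8.35 in WT cells, Tfap2b, an AP-2 factor of neural crest and interneurons, at 9.25, and Msx3, a homeobox factor of the dorsal neural tube, at 9.95. Rtn1, a reticulon of neurons, was at 7.94 and Amer3, of the APC-binding AMER family, at 9.97.

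The same genes were listed in Rarb-/- cells treated with BMS753, an agonist of RARα given at 1 µM. In that library Lhx5 was at 11.67, Gbx2 at 10.35, Msx3 at 9.72, Amer3 at 9.09, Tfap2b at 8.97, Dcx at 7.51, Gad1 at 7.39 and Rtn1 at 7.14. They were also listed in WT cells with BMS753, at 9.36 for Lhx5 and 7.63 for Gad1. With ATRA, the values of Lhx5 were 8.12 in Rara-/- cells and 8.69 in Rarg-/- cells, and those of Gad1 were 5.48 and 7.59. These 8 genes were thus listed in WT cells with ATRA and in the 5 further libraries with ATRA or BMS753 at day 10, all of which share the WT ethanol reference.

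Rising genes of 6 neuronal lists were listed mainly in WT cells. The lists were chosen with earlier results of these data known and joined after values were seen. The shares below therefore describe these lists and are no independent support. Of 307 genes in 6 neuronal lists, 63 were listed as rising in WT cells with ATRA, and 50 of them (79.4%) were lost, against 54.7% over all genes. A distance over 1 was reached by 28 of the 50, and Lhx5, Celf6 and Kcnc1 had log2 fold changes of 10.89, 9.73 and 9.35. In the other direction 2 neuronal genes were gained, Pcsk2 at 4.83 and Gabra4 at 5.81. The neuronal lists held 23.1% of the lost, 7.26% of the kept and 1.11% of the gained rising genes. With ATRA, 15 of the 50 lost genes were listed in Rara-/- and 29 in Rarg-/- cells. In the broader neuron marker list of the study, 58.9% of the genes rising in WT cells were lost and 35 rising genes were gained.

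Among neuronal transcription factors, 4 rising genes were kept, 18 were lost and 0 were gained. The lost factors included the proneural genes Neurog2 at 6.01 and Neurod1 at 8.76 in WT cells. They also included Pax2 at 6.97, Lbx1 at 7.83, Lhx1 at 6.55, Prdm13 at 7.96 and Bhlhe22 at 7.84, all factors of spinal cord interneurons. With ATRA, Neurog2, Neurod1 and Prdm13 were not listed in Rara-/- or Rarg-/- cells either. Pax2, Lhx1 and Bhlhe22 were listed in Rarg-/- but not in Rara-/- cells, and Lbx1 was listed in both. Pax6, at 5.03, and Irx1, at 4.99, were close to the lowest values listed. The kept factors were Dlx5, at 6.83 in WT and 8.59 in Rarb-/- cells, Lmo3 at 6.19 and 6.72, Irx3 at 5.33 and 6.02, and Irx5 at 6.55 and 5.79. Eomes, a factor of the developing forebrain, was gained as a falling gene at -6.72.

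Transmitter genes were mostly lost as well. For GABA, the synthesizing enzymes Gad1 and Gad2 and the vesicular transporter Slc32a1 were at 9.59, 6.93 and 6.82 in WT cells and were lost. Slc17a6, the vesicular glutamate transporter of glutamatergic neurons, was kept at 9.80 in WT and 7.93 in Rarb-/- cells. Of the transmitter receptors 9 were lost, among them Gabra2 and Gabrb2 of the GABA-A receptor and Grin1, Grin2b, Gria1, Grik1 and Grm7 of the glutamate receptors. Gria2, an AMPA receptor subunit, had the highest value of all listed genes in WT cells and was kept at 11.67 (SE 2.80) and 10.12 (SE 2.69). Among voltage-gated channels Kcna2 was kept at 8.28 and 7.80, 5 were lost and Kcnj3 was gained as a falling gene at -7.45.

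Structural genes of neurons gave 3 kept, 12 lost and 1 gained rising gene. Tubb3 and Map2, tubulin and microtubule proteins used as neuron markers, were at 4.87 and 5.82 in WT cells and not listed in Rarb-/- cells with ATRA. Tubb3 was 0.12 log2 units and Map2 0.80 log2 units above the limit in WT cells. Tubb3 was not listed in Rara-/- or Rarg-/- cells with ATRA or in WT cells with BMS753 either. Map2 was not listed in Rara-/- cells with ATRA and was at 4.86 in Rarg-/- cells. In Rarb-/- cells with BMS753 they were at 4.49 and 4.91. The study reports neuronal differentiation of Rarb-/- cells with ATRA from TUBB3 and MAP2 staining and RT-qPCR. Its RT-qPCR markers in the receptor-deficient lines included Gad1, under the name Gad67. Gad1 was among the lost genes here. The study also reports a recovery of marker genes similar to that of Rara-/- cells with ATRA. That recovery was counted on genes chosen by fold change, and no p limit is stated for it. The lists used here hold only genes that passed the p limit. The gene sets were thus chosen differently, and a gene missing from a list here cannot be read as a conflict with the study. Mapt, which encodes tau, was kept at 8.05 and 5.18, and the neuronal chromatin subunit Actl6b at 11.07 and 6.86. Of the synaptic genes, Syt1, Nrxn3 and Cbln2 were kept with values of 5.77, 7.52 and 8.45 in WT cells and 4.83, 4.87 and 6.93 in Rarb-/- cells, and Syt4 and Cbln1 were lost. Over the 13 kept neuronal genes the median difference, Rarb-/- minus WT, was -1.51, with 3 genes higher and 10 lower, beside a median of 0.42 over all 179 kept rising genes.

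**Figure D3:**
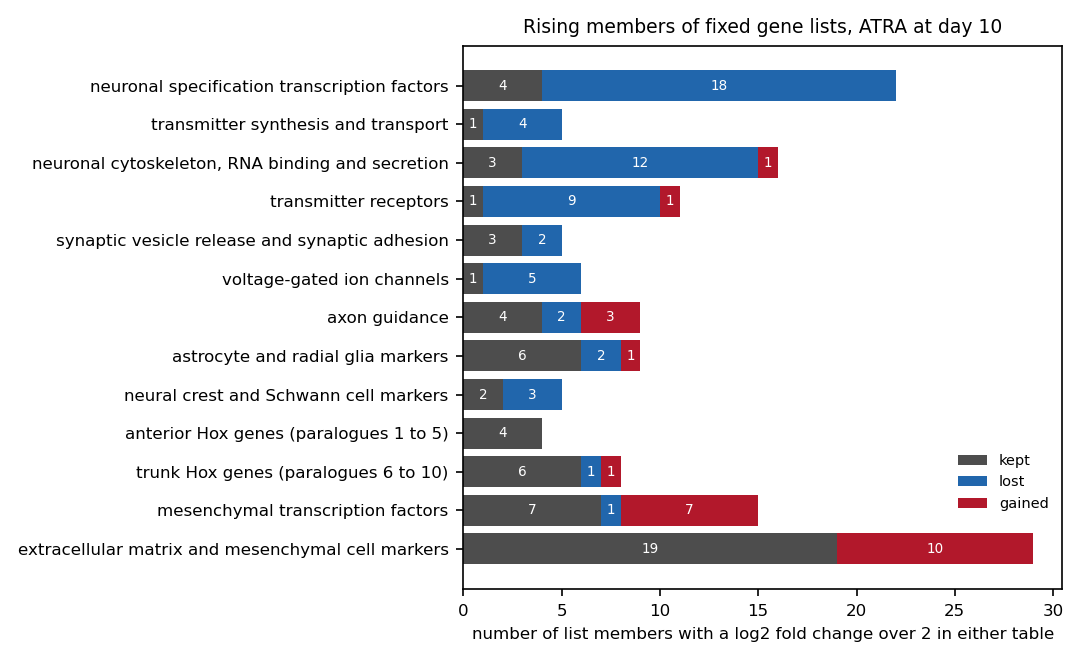
Number of rising members of 13 gene lists that were kept, lost or gained with ATRA at day 10 (horizontal axis), 1 bar per list. The 6 neuronal lists at the top are mostly lost (50 of 63 WT genes), and the 2 mesenchymal lists at the bottom hold 1 lost, 26 kept and 17 gained genes.

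The gained rising genes with the smallest p-values encoded mainly extracellular matrix proteins. Rtl1, an imprinted gene derived from a retrotransposon (chr12:110827404-110838540 in mm9), was at 12.39 (SE 2.82) in Rarb-/- cells. Bgn, the matrix proteoglycan biglycan (chrX:70728941-70741272), was at 11.69 (SE 2.78), Col8a2, a collagen chain, at 9.20, and Eln, which encodes elastin, at 8.68. Fmod, the proteoglycan fibromodulin, was at 10.32, Hand2, a transcription factor of heart, limb and sympathetic neurons, at 9.32, and the basal keratin Krt14 at 10.56. None of these was listed in WT cells with ATRA.

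Several of these genes were listed in other libraries, so they were not particular to Rarb-/- cells. With ATRA, Bgn was at 7.27 in Rara-/- and 9.43 in Rarg-/- cells, and Rtl1 at 7.84 and 8.89. Fmod was at 9.86 in Rarg-/- cells. Eln was listed in Rara-/- cells at 4.65 and was not listed in WT, Rarb-/- or Rarg-/- cells with BMS753. In Rarb-/- cells with BMS753 Rtl1, Hand2 and Fmod were listed, at 8.78, 6.81 and 6.82, whereas Bgn, Col8a2, Eln and Krt14 were not. WT cells with BMS753 listed Rtl1, Bgn, Col8a2, Krt14 and Fmod, at 7.56, 7.74, 5.93, 7.07 and 8.80. Hand2 and Eln were not listed there.

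Mesenchymal genes were kept or gained. Of 85 genes in 2 mesenchymal lists, 27 rose in WT cells, of which 26 were kept and 1 (3.70%) was lost, and 17 were gained. The kept members had a median difference of 1.80, with 25 higher and 1 lower in Rarb-/- cells. For matrix and mesenchymal cell markers alone, 19 were kept with a median difference of 2.24, 0 were lost and 10 were gained as rising genes. Collagen genes illustrate this, with Col1a1 at 5.20 in WT and 9.19 in Rarb-/- cells, Col1a2 at 7.19 and 9.66, Col3a1 at 10.19 and 11.90, and Col6a3 at 7.49 and 10.15. The exception was Col14a1, at 6.94 and 6.68. With ATRA in Rara-/- and Rarg-/- cells Col1a1 was at 7.35 and 7.11 and Col1a2 at 8.74 and 8.78. Col3a1 was at 10.50 and 11.71 there, and Col6a3 at 7.03 and 8.06. Smooth muscle calponin, Cnn1, was gained as a falling gene at -5.29.

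The mesenchymal transcription factors Tbx2, Osr1, Twist1, Prrx1, Foxd1 and Meox1 were among those kept. Meox1 was at 6.78 in WT and 9.62 in Rarb-/- cells, while Foxd1 was nearly equal at 7.52 and 7.56. The gained factors were Hand2, Tcf21 at 8.56, Pitx1 at 8.50, Tbx5 at 8.38, Osr2 at 8.25, Meox2 at 6.74 and Foxc1 at 5.67. Pitx1 was also listed in WT cells with ATRA at day 2 (9.31) and day 4 (8.09) and with ethanol at day 10 (7.38). Tbx18, at 6.80 in WT cells, was the lost one and lay 0.10 log2 units above the limit. Tbx1 fell in both lines, at -5.65 and -5.50.

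For kept rising genes the difference of log2 fold change had a median of 0.42 and a range from -4.22 to 4.37. It was positive for 113 genes and negative for 66, and 67 genes were over 1 and 27 below -1. The implied SE of a single value was larger than most of these differences, with medians of 2.31 in WT and 2.35 in Rarb-/- cells. The WT SE was exceeded by 39 of the 179 differences, and 11 exceeded the combined SE of both values. Because a kept gene had to pass the limit in both tables, large decreases from a modest WT value are missing from this set by construction. Large increases from a WT value below the limit are missing in the same way.

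At the negative end were Fabp7, a fatty acid-binding protein of radial glia, at 10.42 in WT and 6.20 in Rarb-/- cells, and Actl6b at 11.07 and 6.86. Next came Dner, a neuronal transmembrane ligand of Notch, at 9.31 and 5.43, Ttc9b at 10.81 and 7.13, Golga7b at 10.62 and 7.19, and Nsg2, an endosomal protein of neurons, at 8.86 and 5.69. In Rarb-/- cells with BMS753 they were at 10.38, 10.73, 8.52, 10.09, 10.01 and 8.07, above the ATRA value of the same line for each of these 6 genes. In Rara-/- cells with ATRA they were at 7.36, 8.23, 6.33, 7.63, 8.05 and 6.46. In Rarg-/- cells with ATRA they were at 8.22, 9.75, 8.13, 8.25, 9.02 and 7.38. Each of these values lay below that of WT cells and above that of Rarb-/- cells with ATRA.

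At the positive end was Postn, which encodes the matrix protein periostin, with 6.67 (SE 2.07) in WT and 11.04 (SE 2.38) in Rarb-/- cells. Pdgfra, the PDGF receptor of mesenchyme and of oligodendrocyte precursors, was at 9.04 (SE 2.66) and 13.09 (SE 2.85), the highest value listed for Rarb-/- cells with ATRA. Col1a1 was at 5.20 and 9.19, Matn4, a matrilin, at 6.76 and 10.71, Mgp, matrix Gla protein, at 7.82 and 11.62, and Vwc2, a secreted BMP antagonist, at 7.73 and 11.51. In Rarb-/- cells with BMS753 Pdgfra, Col1a1 and Postn were at 9.59, 5.45 and 4.88, and Matn4, Mgp and Vwc2 were not listed. With ATRA, Pdgfra, Col1a1, Mgp and Postn were at 11.13, 7.35, 10.13 and 7.06 in Rara-/- cells, and Matn4 at 7.34. In Rarg-/- cells with ATRA Pdgfra, Col1a1, Mgp and Postn were at 11.17, 7.11, 10.97 and 9.60, and Matn4 was not listed. Vwc2 was listed in neither line.

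**Figure D4:**
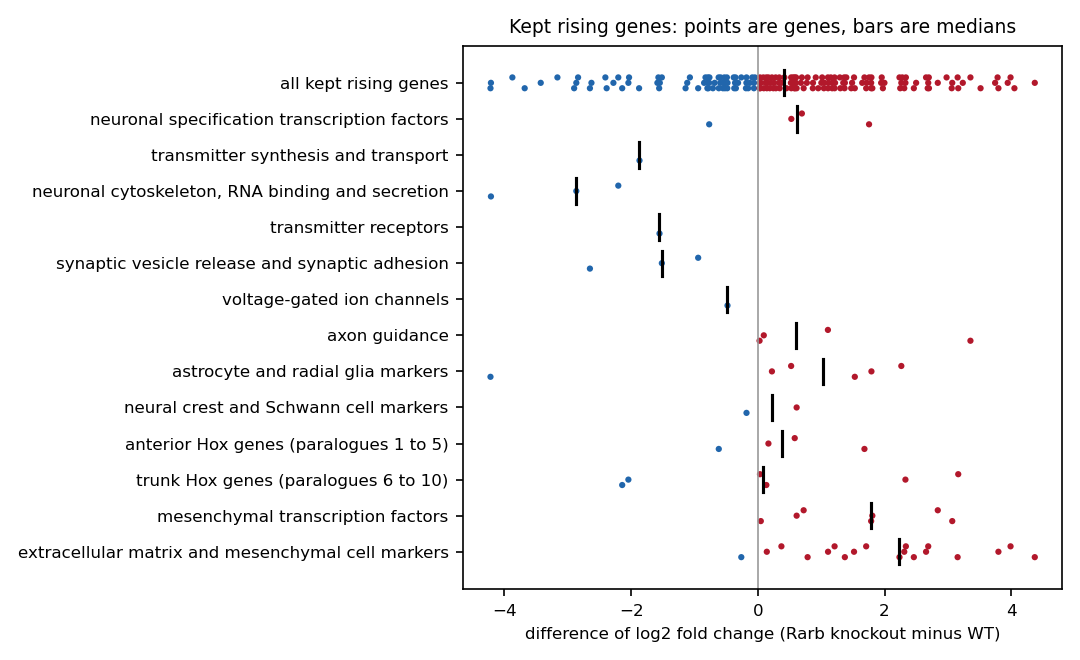
Difference of log2 fold change, Rarb-/- minus WT, for kept rising genes (horizontal axis), by gene list; each point is a gene, blue below 0 and red above it, and black bars are medians. Matrix and mesenchymal markers lie right of 0 but for Col14a1 (median 2.24), and structural, synaptic and transmitter genes of neurons lie left of it.

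**Figure D5:**
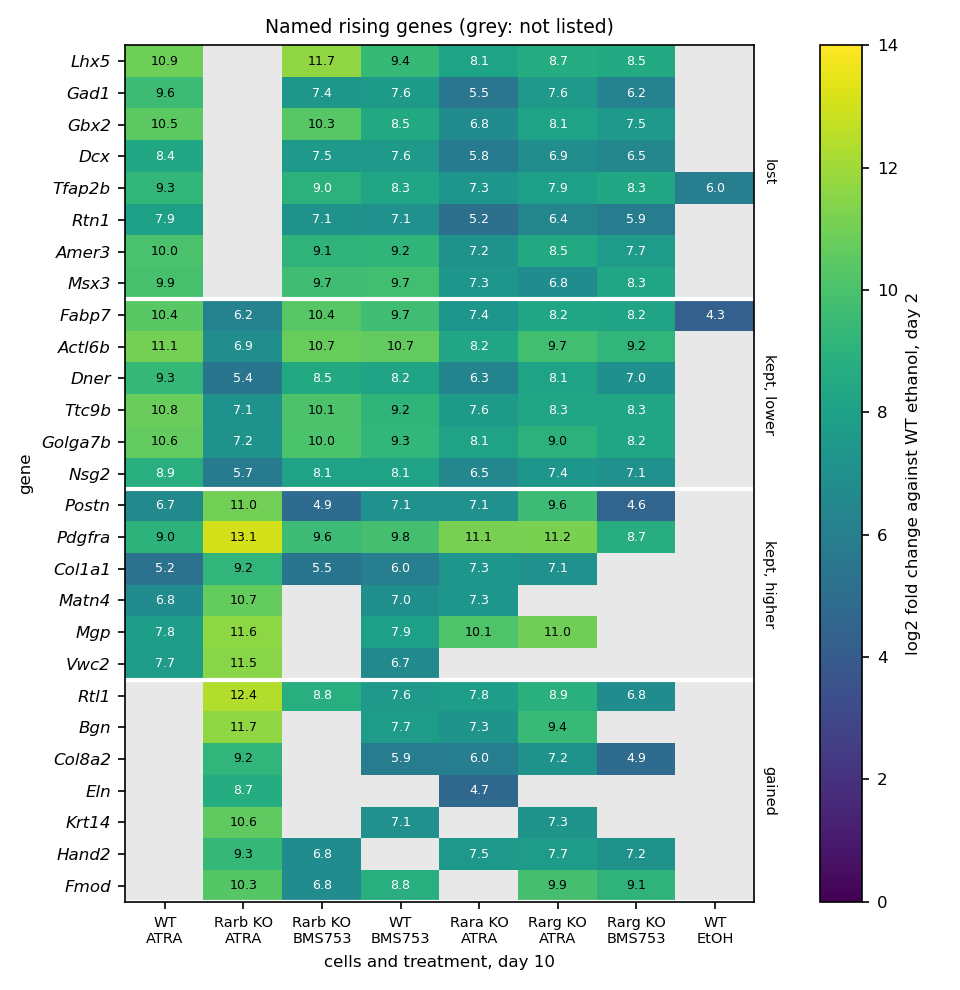
Log2 fold change against WT ethanol at day 2 (colour and number) of 27 named rising genes (rows) in 8 libraries at day 10 (columns), with grey where a gene was not listed. The 8 lost genes are grey with ATRA in Rarb-/- cells and coloured in the other ATRA and BMS753 columns.

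Of the astrocyte and radial glia markers 6 rising genes were kept, 2 were lost and 1 was gained, whereas of the larger astrocyte list of the study 10 were kept, 14 were lost and 14 were gained. The kept ones include Fabp7, given above with the most negative difference of all. Nfia, Nfib and Nfix, nuclear factors of the switch to glia, were at 6.71, 6.09 and 5.28 in WT and 8.24, 7.88 and 7.54 in Rarb-/- cells, and Sox9 at 6.41 and 6.94. With ATRA, Nfia, Nfib and Nfix were at 7.52, 7.02 and 6.76 in Rara-/- and 7.63, 7.69 and 7.05 in Rarg-/- cells. The Notch effector Hes5, at 9.40, and the glutamate transporter Slc1a2, at 5.74, were lost, S100b was gained at 6.90, and Aldh1l1 was gained as a falling gene at -6.73. Aldh1l1 also fell in WT cells with ethanol at day 10, at -6.06, and with ATRA at day 4, at -5.92. Of the oligodendrocyte list only Pdgfra and Bmp4 were listed, and Pdgfra also marks mesenchyme.

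All 4 anterior Hox genes listed were kept, with Hoxa2 at 7.26 in WT and 6.64 in Rarb-/- cells, Hoxa3 at 7.02 and 7.18, Hoxb3 at 6.72 and 8.41, and Hoxb4 at 7.07 and 7.65. Of the trunk Hox genes 6 were kept, 1 was lost and 1 was gained. Here members of the HoxB cluster were lower in Rarb-/- cells, with Hoxb7 at 7.82 and 5.68, Hoxb8 at 9.13 and 7.08 and Hoxb9 at 6.04 in WT cells and lost. Trunk members of the HoxC cluster were close to equal or higher, with Hoxc6 at 7.29 and 7.32, Hoxc8 at 7.46 and 10.62 and Hoxc9 at 6.82 and 9.15. Hoxa7 was at 9.23 and 9.36 and Hoxa9 was gained at 5.93. Of the posterior Hox genes only Hoxc13 was listed, gained as a falling gene at -5.79. Hoxc13 also fell in WT cells with ethanol at day 10, at -7.38, and with BMS753, at -5.55. This split by cluster was noticed after the values were seen and was not particular to Rarb-/- cells. With ATRA in Rara-/- and Rarg-/- cells Hoxb7 was at 6.38 and 6.15, Hoxb8 at 7.47 and 8.30 and Hoxb9 at 5.49 and 4.99. There Hoxc6 was at 7.86 and 7.96, Hoxc8 at 9.19 and 9.37 and Hoxc9 at 8.11 and 8.06.

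Few genes of retinoid signalling were listed. Of the 6 retinoid receptor genes in the list 0 were in either table. Aldh1a2, which synthesizes retinoic acid, was at 5.75 in WT and 8.43 in Rarb-/- cells, and Crabp1, a cytoplasmic retinoic acid-binding protein, at 5.21 and 5.49. Aldh1a2 was also at 9.13 in Rara-/- and 9.10 in Rarg-/- cells with ATRA, and at 5.31 in Rarb-/- cells with BMS753. The homeobox genes Meis1 and Meis2 were kept at 8.53 and 9.11 and at 4.98 and 5.75, and Gbx2 was lost.

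Genes of other cell types were few. Neural crest and Schwann cell markers gave 2 kept and 3 lost rising genes, with Ngfr at 9.13 and 8.95 and the lost genes Tfap2a, Tfap2b and Ednrb at 5.53, 9.25 and 6.57, and Foxd3 fell in both lines at -6.39 and -5.84. Of the axon guidance genes 4 were kept, 2 were lost and 3 were gained, Epha3 was at 5.17 and 8.53, and Epha8 was gained as a falling gene at -5.45. Among epithelial markers Krt17 was kept at 9.15 and 8.35, and Krt7, Krt14 and Krt15 were gained at 5.18, 10.56 and 5.82. Of the falling epithelial genes Cdh1, Cldn6 and Esrp1 were kept. The endothelial receptor Kdr was gained at 6.18, and the endoderm factor Gata6 was gained at 8.07. Gata6 was also listed in WT cells with ATRA at day 2, at 6.62, and at day 4, at 6.29. Tek, an endothelial receptor at -5.10 in WT cells, was lost as a falling gene. Blood and microglia markers were listed 0 times, and of striated muscle only Tnnt1 was listed, falling in both lines at -6.78 and -6.58.

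The broader marker lists of the study gave a less uneven picture. These lists were taken as given and may share genes with the matrix and Hox lists. Of its 1348 neuron markers, 53 rising genes were kept, 76 were lost (58.9%) and 35 were gained, with a median difference of 0.53 for the kept ones. Kept, lost and gained were 10, 14 and 14 for astrocyte markers, 17, 19 and 9 for oligodendrocyte precursor markers, 18, 12 and 14 for GABAergic markers, 10, 13 and 11 for glutamatergic markers, and 25, 22 and 7 for dopaminergic markers. The lost share for these 5 lists lay between 40.0% and 58.3%, beside 54.7% over all genes.

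Falling genes of pluripotent cells were mostly kept. Of 41 pluripotency-linked genes, 22 falling genes were kept, 1 was lost and 1 was gained, with a median difference of -0.56, 6 higher and 14 lower in Rarb-/- cells. Pou5f1, which encodes Oct4, was at -9.88 in WT and -11.04 in Rarb-/- cells, Nanog at -6.16 and -5.96, Tdgf1 at -10.62 and -10.97, and Lin28a at -8.13 and -9.80. Klf4 was gained as a rising gene at 5.57 and Dnmt3l was lost from -7.42. Klf4 was also listed in WT cells with ethanol at day 10, at 3.87. 

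Over all 111 kept falling genes the median difference was -0.13, with quartiles of -1.18 and 0.59, and 3 differences exceeded the combined SE. For 9 genes both values were equal within 0.0001, among them Dppa4 at -6.81 and Lefty2 at -7.64. The same values recurred in WT cells with BMS753, and for Lefty2 also in WT cells with ethanol at day 10. Such repeated values may be a floor, so they are not read as an equal fall in both lines. Without read counts this was not tested. The most negative differences were those of Tdh, threonine dehydrogenase of mouse pluripotent cells, at -7.18 and -10.66, Mup6 at -6.94 and -9.89 and Foxh1, a Nodal pathway factor, at -6.31 and -9.21. Mup6 belongs to a family of near-identical copies and its assignment is uncertain, as is that of the Pou5f1 copies. The most positive differences were those of Trp73, of the p53 family, at -8.28 and -5.07, Ccnb1ip1 at -8.02 and -4.86 and Lefty1, a Nodal antagonist, at -9.24 and -6.70.

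Among the lost falling genes with the smallest p-values were Steap3, a metalloreductase, at -7.25, the connexin Gjb5 at -8.31, and C1s1, a complement protease, at -6.52. Of the gained ones, Slco4a1, an organic anion transporter, was at -8.38 (SE 2.23), the growth factor Fgf15 at -7.86 and the potassium channel Kcnj3 at -7.45. Kcnj3 was also listed in WT cells with BMS753, at -4.89, and in WT cells with ATRA at day 4, at -5.02. Fgf15 was also listed in WT cells with ethanol at day 10, at -4.83, and with ATRA at day 2, at -5.14. Slco4a1 was listed in WT cells with BMS753, at -5.15, and with ethanol at day 10, at -3.44.

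The members are given here in each further library, all compared with the same WT ethanol library. Of the 216 lost rising genes, 155 were listed as rising in Rarb-/- cells with BMS753, where 22.3% of all 1753 genes rose, with a median log2 fold change of 6.70. They numbered 140 in WT cells with BMS753 (21.8% of all genes), 58 in Rara-/- cells with ATRA (19%), 94 in Rarg-/- cells with ATRA (21.4%) and 104 in Rarg-/- cells with BMS753 (19.9%). Among the 86 lost genes more than 1 log2 unit above the limit, 79 were listed in Rarb-/- cells with BMS753. Of the 50 lost neuronal genes, 41 were listed there, and 15 were listed in Rara-/- and 29 in Rarg-/- cells with ATRA.

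In the further libraries at day 10 the 180 gained rising genes were listed more often with ATRA than with BMS753. Only Rarg-/- cells were given with both ligands there. The genes numbered 15 in Rarb-/- cells with BMS753 (22.3% of all genes), 37 in WT cells with BMS753 (21.8%) and 42 in Rarg-/- cells with BMS753 (19.9%). With ATRA they numbered 67 in Rara-/- cells (19%) and 82 in Rarg-/- cells (21.4%). As shares of the 180 these are 8.33%, 20.6%, 23.3%, 37.2% and 45.6%. Of the 17 gained mesenchymal genes, 2 each were listed in Rarb-/- and WT cells with BMS753 and 5 in Rarg-/- cells with BMS753. With ATRA 9 each were listed in Rara-/- and Rarg-/- cells. The 179 kept rising genes numbered 151, 160 and 139 with BMS753 in Rarb-/-, WT and Rarg-/- cells. With ATRA they numbered 160 in Rara-/- and 156 in Rarg-/- cells.

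For falling genes the further libraries held fewer members. In Rarb-/- cells with BMS753, where 6.79% of all genes fell, 61 of the 111 kept, 12 of the 40 lost and 18 of the 69 gained genes were listed. With ATRA the counts were 98, 14 and 32 in Rara-/- cells, where 10.4% fell, and 92, 15 and 22 in Rarg-/- cells, where 9.47% fell. With BMS961 in Rarb-/- cells, where 6.96% fell, they were 30, 8 and 17, with the combination 43, 8 and 20, and with BMS753 in WT cells, where 9.13% fell, 94, 16 and 16.

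The reference was taken at day 2, so time in culture differs along with treatment, and its part in the lists was not tested. In WT cells with ethanol at day 10, where 9.53% of all genes rose, 36 kept, 18 lost and 11 gained rising genes were listed. Of the falling genes, 7.64% of all genes in that library and in Rarb-/- cells with the combination, 34 kept, 7 lost and 12 gained were listed. In WT cells with ATRA at day 4, 77 kept, 46 lost and 9 gained rising genes were already listed, where 10.2% of all genes rose, and 63, 5 and 6 falling ones, where 5.7% fell. At day 2 with ATRA 26, 14 and 8 rising genes were listed, where 5.65% rose, and 24, 3 and 4 falling ones, where 2.57% fell. With BMS961 in Rarb-/- cells, at 0.1 µM, 24 kept, 9 lost and 17 gained rising genes were listed, where 7.02% of all genes rose, and with BMS641 and BMS961 together 38, 15 and 19, where 8.27% rose.

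Lost genes that rose in WT and Rarg-/- cells with BMS753 and in Rara-/- and Rarg-/- cells with ATRA, but in none of the 4 Rarb-/- libraries, numbered 3. Abca1, a cholesterol transporter, was at 6.04 in WT cells with ATRA and between 5.96 and 6.83 in those 4 libraries, Akr1c13, an aldo-keto reductase, was at 7.09, and Tbx18 at 6.80. All 3 were less than 1 log2 unit above the limit in WT cells.

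Conversely, 9 gained genes were listed in the same direction in all 4 Rarb-/- libraries. Ctsc, the protease cathepsin C, was at -6.80 with ATRA, -6.99 with BMS753, -3.97 with BMS961 and -4.08 with the combination, and 3830403N18Rik at -7.51, -7.82, -7.58 and -7.24. Zmat1, a zinc finger gene, rose by 6.29, 5.74, 6.06 and 5.69, and Tgfbr3l and the cell cycle gene Ccnd2 rose as well. Slco4a1 and C330024D21Rik fell. In WT cells Tgfbr3l and Ccnd2 were listed with BMS753, at 7.70 and 4.68, and with ATRA at day 4, at 8.32 and 4.70. Slco4a1 fell in WT cells with BMS753, at -5.15, and with ethanol at day 10, at -3.44. Ctsc, 3830403N18Rik, Zmat1 and C330024D21Rik were not listed in these WT libraries. All 9 were also listed in the same direction in Rara-/- or Rarg-/- cells, such as Slco4a1 at -6.17 in Rara-/- and -7.58 in Rarg-/- cells with ATRA and Zmat1 at 5.50 in Rarg-/- cells with BMS753.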

How the data were processed

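RNA-seq of P19 cells was used from 24 samples with 1 library each. Per the labels and the methods of the study, the authors aligned reads against mm9 by Bowtie2 2.1.0, counted them per gene by featureCounts and ran DESeq2. The deposited values are a log2 fold change and an unadjusted p-value per gene, both from the authors' own comparison with WT EtOH at day 2. They were used because the kept, lost and gained genes are defined on them. In 1 table the authors also deposited a standard error, which is a score on the log2 scale. Sequencing depth is unknown because no read counts entered the work.

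Genes past 2 on the log2 scale in either direction, a 4-fold change, were compared by exact symbol. Percentages in brackets after a library refer to the 1753 genes in any table, since the number of genes tested is not in the tables used here. A standard error was derived per gene as the value divided by the normal deviate of its two-sided p-value. For the 144 genes with a deposited error the largest relative gap was 4.27e-08. The combined standard error treats both values as independent, although they share the reference. The script that sorts genes into kept, lost and gained was tested on simulated data.

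The members, the 24 gene lists and the rule for named genes were chosen with earlier results of these data known, and the joining of 6 neuronal and 2 mesenchymal lists was made after values were seen. Named genes were the lost and gained genes with the smallest p-values (8 rising and 4 falling each), the kept genes with the most extreme differences (6 and 6 rising, 3 and 3 falling), list members, lost genes listed in 4 other libraries but in no Rarb-/- library, and gained genes listed in all 4 Rarb-/- libraries. Some genes that meet these rules are counted but not reported here by name. The 6 marker lists of the study were matched as given. Gene coordinates are those of mm9, and 82 of 795 members had no single gene model there. Promoters came from RefSeq on GRCm38.p6, and in addition to the motifs given others were searched and are not reported, since under 80% of members had a promoter. Scripts ran in Python 3.11.15 and used scipy 1.17.1, numpy 2.4.6 and pandas 2.3.3, and figures were drawn with matplotlib 3.10.9.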

Additional observations from a re-analysis of the deposited data

How the results depend on the processing

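The counts depended mainly on the p limit. With p below 0.001 required in 1 table and a listing in the other, 105 rising genes were kept, 41 lost and 25 gained, and 50 falling genes were kept, 2 lost and 8 gained. With p below 0.001 in both tables the rising counts were 29, 65 and 77 and the falling counts 28, 7 and 25, since fewer genes were compared. The mean in place of the median of the absolute log2 fold change over its implied SE was 2.98 for lost and 2.94 for gained rising genes and 2.78 and 2.89 for falling ones, against medians of 2.91, 2.83, 2.69 and 2.82. With a threshold of 5 the neuronal lists held 1 gained rising gene in place of 2. The other 51 values stayed within 1.5 times the count or the spread, and 0 changed sign. They covered thresholds of 3 and 5, other symbols and means. They also covered leaving out genes listed in WT EtOH at day 10, or predicted genes and copies. The threshold of 3 could not alter a count, because no listed value of the 2 lines with ATRA was smaller than 4.61. Its unchanged counts therefore say nothing about stability, and the threshold of 2 removed no gene for the same reason. No paired analysis was possible because each condition has 1 library, and for the same reason none could be left out. The unknown depth and the p limit bound what can be seen: changes under a log2 value of about 4.61 are not in these 2 tables.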
